A study of Schmidtea mediterranea with 24 samples.

Results

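The contigs described here were lower, on average, after RNA interference (RNAi) against either of 2 muscle transcription factors than in control planarians of the same feeding schedule. A contig is an assembled transcript sequence, and the count table holds 26563 of them. The members were chosen from the measured values, in CPM (the count divided by the total of its library, times 1000000). For each contig, M is log2 of the ratio of the mean CPM after myoD RNAi to that of its controls, with 0.5 CPM added to both means, and N is the same ratio for nkx1-1 RNAi. A member has a mean of at least 2 CPM over 24 libraries, and both M and N at or under −0.2. In at least 1 of the 2 pairs, every RNAi library also lies below every control library. Of the 13822 contigs with a mean of at least 2 CPM, 757 met the condition on M, 1089 that on N and 209 both, and 81 of these met the condition on overlap as well.

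Schmidtea mediterranea is a freshwater flatworm that replaces its tissues continuously from dividing stem cells called neoblasts. Its body wall holds layers of muscle fibres, which also express signals that carry positional information. In planarians, myoD is required for the longitudinal fibres and nkx1-1 for the circular fibres of the body wall. RNAi lowers the transcript of a chosen gene, here by feeding the animals double-stranded RNA (dsRNA) in liver.

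All animals were of the CIW4 strain and uninjured. The 4 groups were 6 animals fed myoD dsRNA and 6 fed control dsRNA, both 10 times in 7 weeks, and 7 animals fed nkx1-1 dsRNA and 5 fed control dsRNA, both 12 times in 9 weeks. Controls were fed dsRNA of the nematode (Caenorhabditis elegans) gene unc-22. Polyadenylated RNA was sequenced as 1 library per animal, as the title, the design and the tissue label have it, whereas the extraction text speaks of pooled wounds of tail pieces. If the extraction text holds instead, the spread between libraries would not be one between single animals.

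Total counts were 9757113 to 18136698 per library. A pair of libraries stood apart. Replicate 3 of the 12-feeding controls was the highest of its group in 55 of the 81 members. The condition on N favours contigs with a high 12-feeding control, and the same count over all contigs was not taken. Over the 13822 contigs its median log2 level relative to its group mean was 0.02, against −0.06 to 0.02 in the other 12-feeding controls. In nkx1-1 RNAi replicate 1 the single contig dd_Smed_v4_4_1_1 took 6.79% of all counts, where the rest of its group had 0.0393% to 0.391%. Not every count was recomputed without these 2 libraries. Where leaving them out moved a recomputed count of members or an N of a named contig by over 1.5 times, or took that N past −0.2, the value without them is given beside it. The files pair no contig with a gene name or a sequence, so the members are given by contig ID, and neither the targeted transcripts nor markers of muscle or other tissues were read here.

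The 81 contigs carried small reductions. M had a median of −0.34 and ran from −2.05 to −0.20, with the central part of the list, between its quartiles, from −0.44 to −0.28. N had a median of −0.30 and ran from −0.98 to −0.20, between quartiles of −0.37 and −0.24. Over all 13822 contigs the medians were −0.02 for M and 0.03 for N. A single member had M at or under −1, and none had N that low. At or under −0.5 were 12 members by M, 7 by N and 2 by both, and without 12-feeding control replicate 3 the count by N was 4. These values chose the members and are descriptions. In whole animals, fewer cells of a type and less RNA per cell cannot be told apart in any of them.

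**Figure D1:**
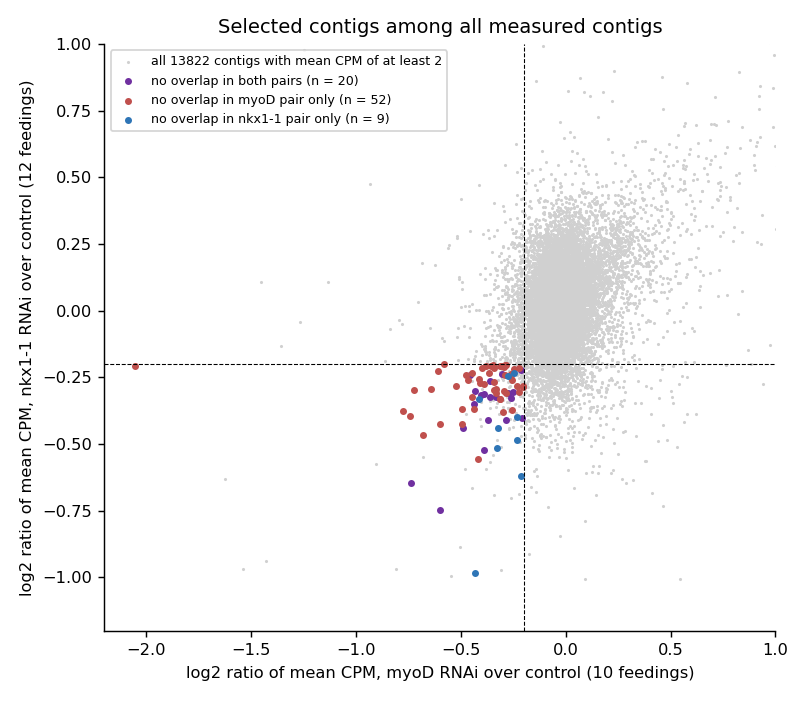
Log2 ratio of mean CPM after myoD RNAi over its controls (x axis) and after nkx1-1 RNAi over its controls (y axis), with 0.5 CPM added to each mean. Grey points are the 13822 contigs with a mean of at least 2 CPM, of which 46 lie outside the axes, coloured points are the 81 members by the pair in which RNAi and control libraries do not overlap, and dashed lines mark −0.2. Most members lie within 0.5 of zero on both axes, and 1 lies far to the left.

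The condition on overlap was met mostly through the myoD pair. Every myoD RNAi library lay below every 10-feeding control for 72 members, where 1.64% of the 13822 contigs did so. Every nkx1-1 RNAi library lay below every 12-feeding control for 29 members, against 1.09% of the same contigs. The rule used both contrasts, so nothing is read from these counts. Both pairs were free of overlap for 20 members, the myoD pair alone for 52 and the nkx1-1 pair alone for 9. Of the 128 contigs that met the conditions on M and N but overlapped in both pairs, the median of the mean level was 7.57 CPM, against 26.4 CPM in the members.

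For orientation, edgeR's quasi-likelihood test called 75 members lower after myoD RNAi at an adjusted p under 0.05, where it called 2.37% of 16352 contigs tested lower. After nkx1-1 RNAi it called 39 members lower, against 2.08% of 16598 contigs tested. That number was 12 at an adjusted p under 0.01 and 25 without TMM factors (which scale for library composition). It was 66 in a joint fit of all 24 libraries. With the replicate number as a block it was 1, without 12-feeding control replicate 4 it was 21, and with DESeq2, another test, 52. In the same order, the lower calls over all contigs tested were 57, 142, 1005, 4, 110 and 566, against 346 in the main fit. Of the members, 35 were called lower in both comparisons, where 0.359% of 16162 contigs tested in both were, and 2 in neither. With the same changes to the nkx1-1 fit alone, the 35 became 11, 21, 61, 1, 19 and 48. The share called in both over all contigs was not taken with these changes. The authors' deposited table for myoD RNAi gave 67 members as lower with an adjusted p under 0.05, against 1.01% of the listed contigs. The authors' deposited table for nkx1-1 RNAi gave 34 members, against 0.882% of the listed contigs. The authors' deposited ratios were below 1 for all 81 members in both tables, with medians of 0.783 for myoD and 0.787 for nkx1-1 RNAi. All of these counts come from the contrasts that chose the members.

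Which values lay at the edge of the list can be stated for each condition. On M, the nearest member had −0.204 and the nearest contig left out had −0.195. On N these values were −0.201 and −0.195. On the mean level, the lowest member had 3.03 CPM and the nearest contig left out had 1.78 CPM. The thresholds on M and N thus divide contigs that differ by less than 0.01 on the log2 scale.

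The reduction was seen in each animal. Against the mean of its own controls, the median over the 81 contigs of the log2 level lay between −0.40 and −0.33 in the 6 myoD RNAi animals, with a median of −0.35, and between −0.07 and 0.07 in the 10-feeding controls. In the 7 nkx1-1 RNAi animals it ran from −0.42 to −0.21, with a median of −0.30, against −0.07, −0.06, 0.19, 0.03 and −0.07 in 12-feeding control replicates 1 to 5. No RNAi animal reached the range of its controls, which the choice of members favours. Between 80 and 81 members lay under the control mean in every myoD RNAi animal, and 76 to 81 in every nkx1-1 RNAi animal. Over all 13822 contigs the same median stayed between −0.12 and 0.11 in every animal. Its extremes were nkx1-1 RNAi replicate 1, at −0.12, and nkx1-1 RNAi replicate 3, at 0.11. The members' medians in these animals, −0.39 and −0.26, were not adjusted for this offset.

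**Figure D2:**
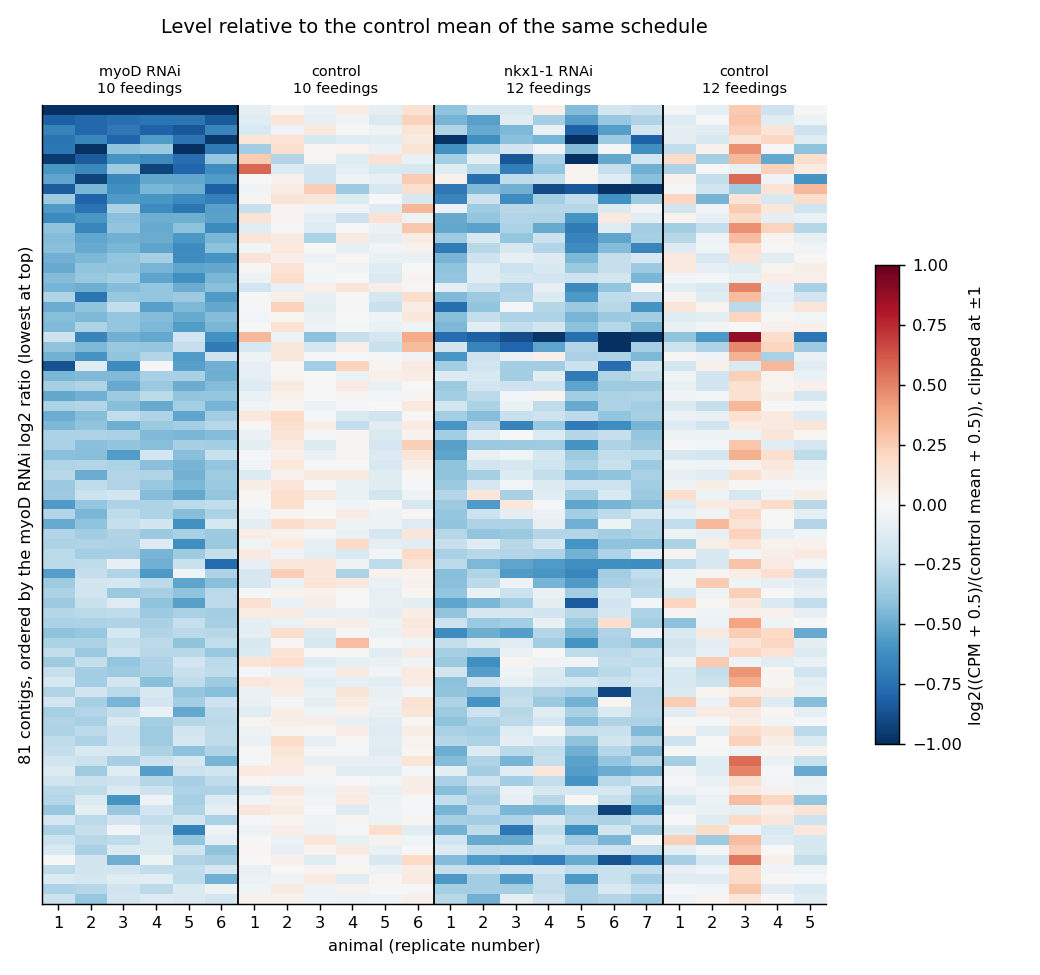
Log2 level of the 81 members (rows, ordered by M with the lowest at the top) in each of the 24 animals (columns, by replicate number), relative to the mean of the controls of the same schedule, with 0.5 CPM added; 11 values beyond ±1 are drawn at the limit. Blue marks lower and red higher levels. The myoD RNAi columns are blue nearly throughout, the nkx1-1 RNAi columns vary more, and replicate 3 of the 12-feeding controls is mostly red.

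The members together took a small share of each library. They held 0.936% to 1.02% of all counts in myoD RNAi animals and 1.16% to 1.31% in 10-feeding controls. The share was 0.841% to 0.965% in nkx1-1 RNAi animals, and 1.08%, 1.07%, 1.17%, 1.15% and 1.08% in 12-feeding control replicates 1 to 5. The groups of each pair did not overlap in this share, a separation that the choice of members favours.

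Replicate 3 of the 12-feeding controls weighed on the nkx1-1 values. Without it 59 members still had N at or under −0.2, and the median N was −0.26. Without this library and nkx1-1 RNAi replicate 1, 52 members had N at or under −0.2, all 81 had N below 0, and the median was −0.26. The number of members with no overlap in the nkx1-1 pair was 30 without the control and 31 without both. Leaving libraries out can only keep or raise such a number for a fixed list. The share over all contigs was not taken without these libraries, so nothing is read from the 30 and 31. Choosing anew by the same rule without both libraries gave 58 contigs, of which 52 are among the 81.

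Overlap in the nkx1-1 pair came from many animals. In 35 members nkx1-1 RNAi replicate 4 was at or above the lowest control, and in 30 members replicate 3 was, against 12 members for replicate 5. Among the controls, replicate 5 was at or below the highest nkx1-1 RNAi animal in 36 members, replicate 1 in 33 and replicate 3 in 7. Overlap through 1 library alone was seen at most 6 times, for nkx1-1 RNAi replicate 3. In the myoD pair each library reached into the other group's range in 0 to 6 members.

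Within groups the members' spread was near that of other contigs. The median SD of log2 levels was 0.098 in myoD RNAi animals and 0.101 in their controls for the members, and 0.108 and 0.110 over the 13822 contigs. In nkx1-1 RNAi animals it was 0.156 for the members and 0.156 for all, and in 12-feeding controls 0.167 and 0.145. The condition on overlap favours contigs with little spread in the pair in which it was met.

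The members' deviations from their group means shared a common component. The first principal component of these deviations, each contig scaled to equal weight, held 30.6% of the members' variance, and 19.8% over all 13822 contigs. Of the members, 77 had a loading of one sign and 4 the other, and this split was not taken over all contigs. Replicate 3 of the 12-feeding controls had the largest score, and without it the shares were 24.8% for the members and 21.8% for all contigs. The 24 libraries share depth and composition across contigs, and no test was made of these shares. The same libraries chose the members, and the condition on N favours contigs that are high in a 12-feeding control. Nothing is read from the shares or the signs.

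The 2 contigs with the lowest M had no overlap in the myoD pair. Contig dd_Smed_v4_18181_0_1 had 0.319, 0.796 and 1.56 CPM as the lowest, median and highest of 6 myoD RNAi animals, against 4.56, 4.82 and 5.52 CPM in 6 controls. The myoD RNAi mean was 16.4% of the control mean (M −2.05), from 5 to 21 counts per myoD RNAi library and 62 to 96 per control library. After nkx1-1 RNAi the lowest, median and highest were 2.47, 3.03 and 3.69 CPM, against 3.46, 3.27, 4.30, 2.97 and 3.53 CPM in 12-feeding control replicates 1 to 5. These groups overlapped. N was −0.21, just inside the threshold, and it was −0.13 without 12-feeding control replicate 3 and −0.10 without this library and nkx1-1 RNAi replicate 1, both outside it. The contig is the only member whose M and N differ by more than 1.

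Contig dd_Smed_v4_10469_0_1 came next by M. It had 9.14, 9.61 and 9.87 CPM (lowest, median, highest) in myoD RNAi animals, against 15.1, 16.0 and 19.7 CPM in controls, and M was −0.78. The 6 myoD RNAi animals lay close together, and all of them below the controls. In nkx1-1 RNAi animals it had 8.07, 9.16 and 11.1 CPM, against 11.0, 11.9, 14.7, 11.0 and 11.6 CPM in 12-feeding control replicates 1 to 5. The highest nkx1-1 RNAi animal just passed the lowest controls, and N was −0.38. Of the controls, replicate 3 was the highest.

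The largest reductions after nkx1-1 RNAi without overlap were in dd_Smed_v4_2193_0_1 and dd_Smed_v4_1267_0_1. Contig dd_Smed_v4_2193_0_1 stood at 22.6, 55.2 and 60.5 CPM (lowest, median, highest) in 7 nkx1-1 RNAi animals, against 77.1, 68.6, 188, 116 and 61.8 CPM in control replicates 1 to 5. The highest RNAi animal and the lowest control differed by little, and replicate 3 was the highest control by a wide margin. N was −0.98 with all libraries, −0.64 without 12-feeding control replicate 3 and −0.48 from group medians. After myoD RNAi it had 90.6, 102 and 126 CPM, against 108, 133 and 186 CPM in controls, with overlap between the groups and M of −0.43.

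Contig dd_Smed_v4_1267_0_1 was free of overlap in both pairs. It had 10.4, 11.6 and 15.5 CPM (lowest, median, highest) in nkx1-1 RNAi animals, against 21.1, 18.5, 16.5, 23.4 and 26.7 CPM in control replicates 1 to 5, and N was −0.75. Here replicate 3 was the lowest control, and without it N was −0.82. In myoD RNAi animals it had 9.19, 11.3 and 12.1 CPM, against 12.9, 17.0 and 19.9 CPM in controls, with M of −0.60. This contig and dd_Smed_v4_8738_0_1 had the deepest weaker reduction among the 20 members free of overlap in both pairs, and they are the only members with both M and N at or under −0.5.

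Contig dd_Smed_v4_8738_0_1 stood at 9.29, 10.9 and 12.4 CPM in myoD RNAi animals, against 16.7, 18.5 and 20.6 CPM in controls (lowest, median, highest; M −0.74). In nkx1-1 RNAi animals it stood at 6.76, 9.22 and 11.1 CPM, against 13.5, 12.8, 15.7, 16.7 and 13.2 CPM in control replicates 1 to 5 (N −0.65). The RNAi means were 58.9% and 62.6% of their control means. In both pairs a clear gap lay between the highest RNAi animal and the lowest control.

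**Figure D3:**
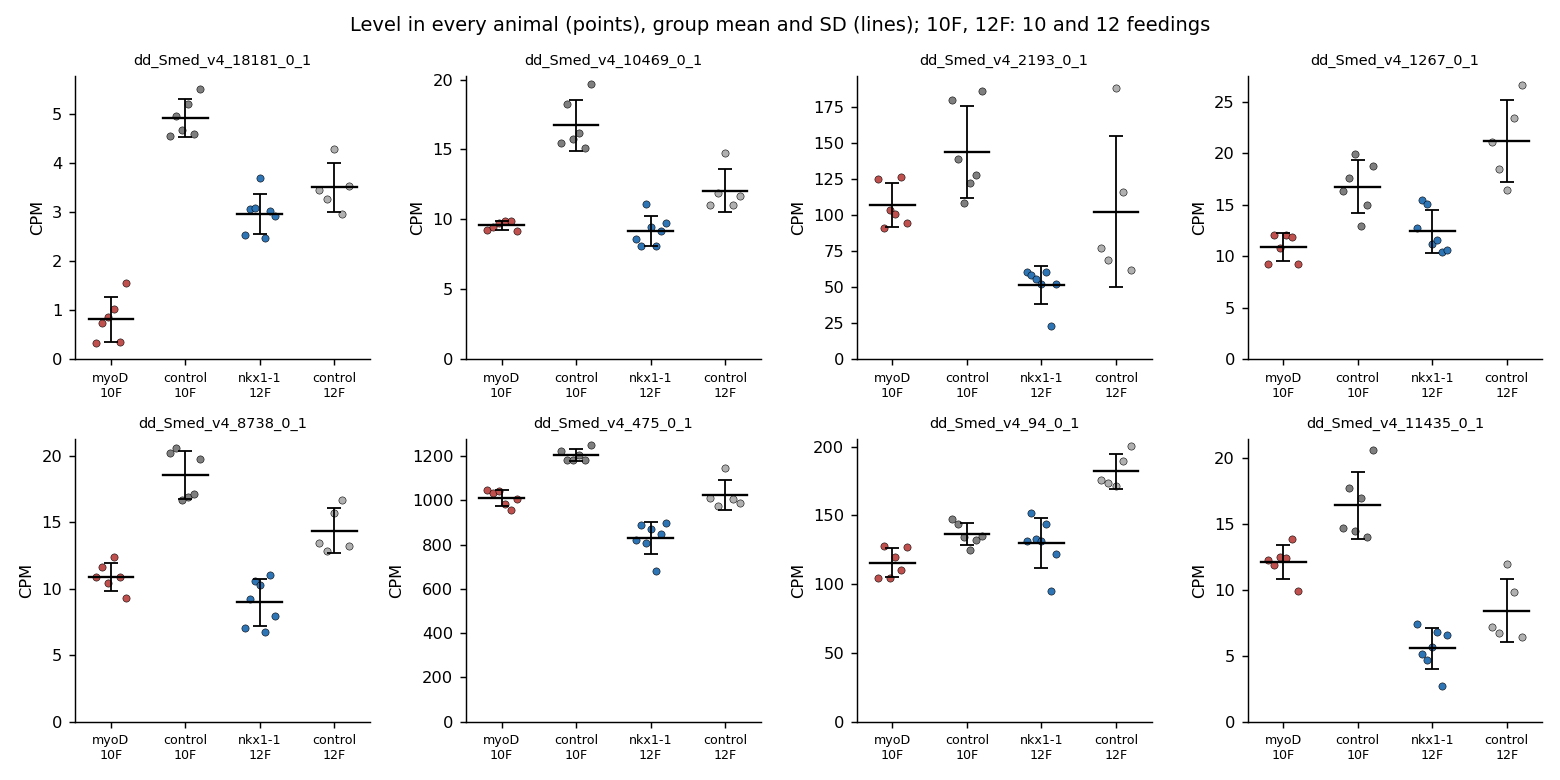
CPM of 8 members in each animal (points) with the group mean and SD (lines), for 6 myoD RNAi animals, 6 controls of 10 feedings, 7 nkx1-1 RNAi animals and 5 controls of 12 feedings. Contig dd_Smed_v4_18181_0_1 is near 1 CPM in the myoD RNAi animals alone, and in dd_Smed_v4_94_0_1 the 12-feeding controls, at 171 to 201 CPM, lie above all other groups.

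Members of all levels had similar median M and N. Members with a mean of 100 CPM or more numbered 19, or 23.5% of the list, against 11.9% of the 13822 contigs, and their median M and N were −0.35 and −0.26. Between 10 and 100 CPM were 44 members, with medians of −0.33 and −0.30, and under 10 CPM 18 members, with −0.36 and −0.32. The myoD pair was free of overlap for 17 of the 19 most abundant members, for 40 of the 44 and for 15 of the 18. The nkx1-1 pair was so for 12 of the 19, 14 of the 44 and 3 of the 18. Overlap was not counted by level over all contigs, and the rule required a lack of it in at least 1 pair. No test was made of these counts, and nothing is read from them.

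The most abundant member was dd_Smed_v4_249_0_1. It had 1884, 2076 and 2250 CPM (lowest, median, highest) in myoD RNAi animals, against 2294, 2487 and 2722 CPM in controls, with M of −0.26. In nkx1-1 RNAi animals it had 1678, 1929 and 2138 CPM, against 2338, 2312, 2290, 2391 and 2406 CPM in control replicates 1 to 5, with N of −0.33. It rested on at least 20865 counts in every library, and both pairs were free of overlap.

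Contig dd_Smed_v4_475_0_1 was the next most abundant. It stood at 957, 1020 and 1045 CPM in myoD RNAi animals, against 1181, 1193 and 1250 CPM in controls (lowest, median, highest; M −0.25). In nkx1-1 RNAi animals it stood at 681, 848 and 896 CPM, against 1012, 976, 1145, 1004 and 986 CPM in control replicates 1 to 5 (N −0.30). No overlap was seen in either pair. The myoD RNAi animals, all of the 10-feeding schedule, lay about where the 12-feeding controls did.

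How M and N compared within the list was mixed. They lay within 0.1 of each other for 41 members, M was deeper by more than 0.1 for 28 and N for 12. M was deeper by more than 0.3 for 7 members and N for 2. Without 12-feeding control replicate 3, M was deeper by more than 0.1 for 40 members and N for 8, and N was deeper by more than 0.3 for 0. Without this library and nkx1-1 RNAi replicate 1, M was deeper by more than 0.1 for 43 members and N for 8. By more than 0.3, M was then deeper for 11 members and N for 0. Both RNAi comparisons have their own controls, and the targeted gene and the feeding schedule change together between them, so gene and schedule cannot be told apart in a difference between M and N.

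The difference between the 2 control groups, 12 against 10 feedings, did not enter the rule, although their libraries did. Most members were lower in the 12-feeding controls: edgeR's quasi-likelihood test on the 11 control libraries called 47 of the 81 lower and 3 higher, and 31 were not called. Over all 16262 contigs tested 16.8% were called lower and 18.2% higher. The median log2 fold change, 12-feeding over 10-feeding controls, was −0.25 for the members and −0.01 over all contigs tested, and 71 members had a negative value. Every 12-feeding control lay below every 10-feeding control for 29 members, where 9.93% of the 13822 contigs did so, and above for 2, where 7.78% did. Without 12-feeding control replicate 3 the calls were 54 lower and 3 higher, with a median of −0.31. Calls over all contigs also became more frequent then, with 3452 lower and 3511 higher of 16394 tested. With all control libraries these were 2736 and 2965 of 16262.

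The control comparison shares the 10-feeding controls with M and the 12-feeding controls with N. A 10-feeding control mean that is high by chance lowers both M and this fold change, and a high 12-feeding control mean lowers N and raises it. By the pair free of overlap, the members called lower in the 12-feeding controls were 34 of 52 for the myoD pair alone, 12 of 20 for both pairs and 1 of 9 for the nkx1-1 pair alone. Their median log2 fold changes were −0.34, −0.19 and 0.02. Contigs that met the myoD conditions only, with N above −0.2, were called lower in 50 of 108 cases and higher in 11, with a median of −0.20. Those that met the nkx1-1 conditions only, with M above −0.2, were called lower in 41 of 103 and higher in 7, with a median of −0.14. These comparison sets were chosen after the members' values had been seen. Lower levels in the 12-feeding controls were thus also frequent outside the 81, and no test of a difference between these sets was made.

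**Figure D4:**
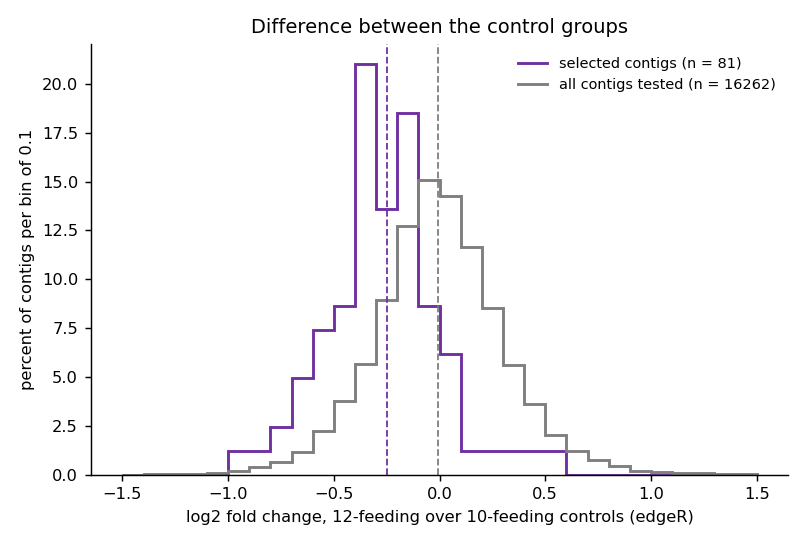
Log2 fold change between the control groups, 12-feeding over 10-feeding (x axis), as percent of contigs per bin of 0.1 (y axis), for the 81 members (purple) and all 16262 contigs tested (grey, 39 of them beyond ±1.5 and not drawn). Dashed lines mark the medians, −0.25 for the members and −0.01 for all contigs.

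The rule sets each RNAi mean of a member below its own control mean. The lowest of the 4 group means is thus always an RNAi group and the highest a control group, and few orders are possible. The nkx1-1 RNAi mean was the lowest of the 4 groups for 68 members and the myoD RNAi mean for 13. The 10-feeding control mean was the highest for 74 members and the 12-feeding control mean for 7. For 38 members the order, low to high, was nkx1-1 RNAi, myoD RNAi, 12-feeding controls and 10-feeding controls. For 29 members the 12-feeding control mean lay below the myoD RNAi mean. Without 12-feeding control replicate 3 these counts were 28 and 40, and the nkx1-1 RNAi mean was again the lowest for 68 members. The nkx1-1 RNAi mean was below the myoD RNAi mean for 68 members, with a median log2 ratio of −0.24. Over the 13822 contigs it was below for 6787, with a median of 0.007. It was also below for 106 of the 128 contigs left out for overlap in both pairs. It was below for 100 of 103 contigs that met the nkx1-1 conditions only, and for 35 of 108 with the myoD conditions only. The target and the schedule cannot be told apart in this ratio.

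Seen animal by animal, the schedules were offset. Relative to the 10-feeding control mean, the median level of the 81 contigs was −0.40 to −0.33 in myoD RNAi animals, −0.71 to −0.49 in nkx1-1 RNAi animals, and −0.38, −0.38, −0.11, −0.29 and −0.42 in 12-feeding control replicates 1 to 5. The 12-feeding controls other than replicate 3 thus overlapped the myoD RNAi animals, and replicate 3 stood between these and the mean of the 10-feeding controls. The lowest nkx1-1 RNAi animal was replicate 5, which was the lowest of its group in 31 members.

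**Figure D5:**
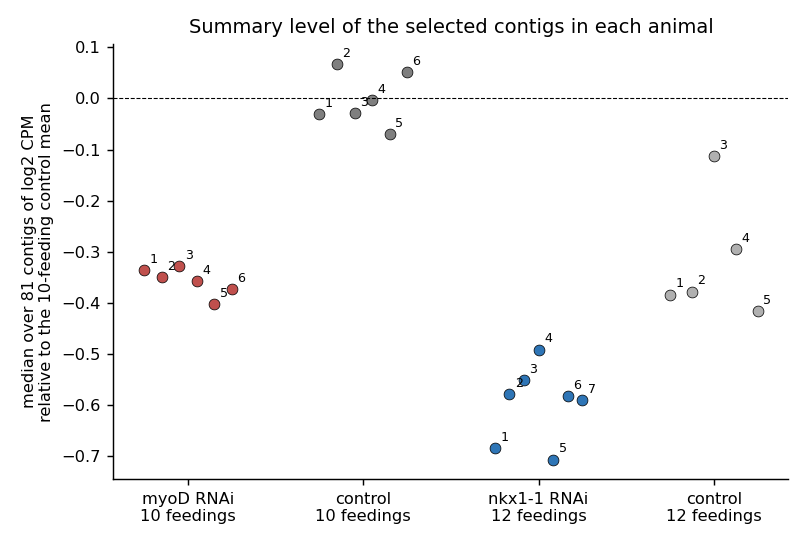
Median over the 81 members of the log2 level relative to the 10-feeding control mean (y axis) in each animal, numbered by replicate, for the 4 groups (x axis). The nkx1-1 RNAi animals lie lowest, at −0.71 to −0.49, and replicate 3 of the 12-feeding controls, at −0.11, lies above the other animals of its schedule.

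The members with the largest falls in 12-feeding controls were dd_Smed_v4_11435_0_1 and dd_Smed_v4_7984_0_1. Contig dd_Smed_v4_11435_0_1 had 7.17, 6.71, 12.0, 9.82 and 6.42 CPM in 12-feeding control replicates 1 to 5, against 14.0, 15.8 and 20.5 CPM in 10-feeding controls (lowest, median, highest). The groups did not overlap, and the log2 fold change was −0.93 ± 0.15 (SE; edgeR adjusted p = 0.000222). After RNAi it stood at 9.88, 12.3 and 13.8 CPM in myoD RNAi animals and at 2.73, 5.68 and 7.37 CPM in nkx1-1 RNAi animals (M −0.42, N −0.56). The nkx1-1 pair overlapped and the myoD pair did not.

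Contig dd_Smed_v4_7984_0_1 had 7.72, 7.25, 11.4, 7.88 and 5.43 CPM in 12-feeding control replicates 1 to 5, against 13.6, 14.8 and 15.8 CPM in 10-feeding controls. Its log2 fold change was −0.85 ± 0.12 (SE; edgeR adjusted p = 0.000102). It stood at 9.86, 12.7 and 13.5 CPM in myoD RNAi animals and at 5.27, 6.15 and 8.60 CPM in nkx1-1 RNAi animals (M −0.25, N −0.26). Without 12-feeding control replicate 3 its N was −0.10, and without this library and nkx1-1 RNAi replicate 1 it was −0.14, both outside the threshold. In both of these falls replicate 3 was the 12-feeding control closest to the 10-feeding animals, and without it the groups lay further apart.

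Against the trend of the list, 3 members rose in the 12-feeding controls. Contig dd_Smed_v4_9234_0_1 had 4.88, 5.82, 5.02, 7.14 and 5.15 CPM in 12-feeding control replicates 1 to 5, against 2.98, 4.00 and 4.67 CPM in 10-feeding controls. The groups did not overlap, and the log2 fold change was 0.55 ± 0.13 (SE; edgeR adjusted p = 0.00388). It stood at 1.92, 2.61 and 3.87 CPM in myoD RNAi animals and at 3.10, 4.33 and 4.86 CPM in nkx1-1 RNAi animals (M −0.41, N −0.33). The myoD pair overlapped. The nkx1-1 pair was only just free of overlap, with 4.86 CPM in the highest RNAi animal and 4.88 CPM in the lowest control. Counts were 30 to 125 per library.

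Contig dd_Smed_v4_94_0_1 had 175, 173, 171, 189 and 201 CPM in 12-feeding control replicates 1 to 5, against 125, 135 and 147 CPM in 10-feeding controls (log2 fold change 0.46 ± 0.06, SE; edgeR adjusted p = 7.71e-05). In nkx1-1 RNAi animals it stood at 95.3, 132 and 152 CPM, about the level of the 10-feeding controls, and in myoD RNAi animals at 105, 115 and 128 CPM (N −0.49, M −0.23). The myoD RNAi animals and their controls overlapped narrowly, and the nkx1-1 pair did not. The other member that rose was dd_Smed_v4_1267_0_1, by 0.38 ± 0.13 (SE; edgeR adjusted p = 0.0290), and its adjusted p was 0.0605, 0.0600, 0.0683 and 0.0986 without 10-feeding control replicate 4 or 5 or 12-feeding control replicate 4 or 5.

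Of the other named contigs, dd_Smed_v4_18181_0_1, dd_Smed_v4_10469_0_1, dd_Smed_v4_8738_0_1 and dd_Smed_v4_475_0_1 were also lower in the 12-feeding controls. Their log2 fold changes were −0.46 ± 0.11, −0.44 ± 0.09, −0.33 ± 0.08 and −0.19 ± 0.05 (SE; edgeR adjusted p = 0.00500, 0.00163, 0.00646 and 0.00836). The most abundant member, dd_Smed_v4_249_0_1, differed by −0.05 ± 0.05 (SE; edgeR adjusted p = 0.459). For dd_Smed_v4_2193_0_1 the value was −0.46 ± 0.24 (SE; edgeR adjusted p = 0.138), and −0.79 without 12-feeding control replicate 3, where the adjusted p was 0.00162.

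By their IDs the 81 members belong to 81 different components of the assembly, and 1 of them has a further contig of its component in the count table. No member shares a component with another member. Contigs of 1 component among all contigs or the other sets were not merged. Contigs of similar sequence in different components could still share reads.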

How the data were processed

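For 24 libraries the authors deposited raw, whole-number counts by contig, and 1 table per RNAi group with the ratio (linear fold) of means and an adjusted p-value. The submitters' processing notes name Bowtie 1.1.1, cutadapt 1.8, DESeq, SAMtools and CASAVA with no role or order. The labels' protocols name a stranded kit, and how strand was counted was not given in the sources used.

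CPM was taken per column total, and members were found by the rule in the report. Counts were tested with edgeR 4.0.16 (R 4.3.3; filterByExpr defaults, TMM, quasi-likelihood F test), each pair fitted alone, with Benjamini-Hochberg adjustment over all contigs tested and 0.05 as threshold. SE is the log2 fold change divided by the square root of F. DESeq2 1.42.0 was an alternative. All p-values are two-sided and judge a difference between group means against the spread between libraries. Between the control groups, the feedings, the weeks and the set of animals differ together, and the p-values cannot tell these apart. The numbers shared by replicates were not taken as pairing the samples, since same-numbered libraries did not deviate together in every pair. The members and lists were chosen with earlier results of these data known.

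The named contigs are the 2 members with the lowest M and N without overlap, the 2 deepest in both pairs, the 2 most abundant (overall and among those without overlap in both pairs), and the 2 with the largest called rise and fall between controls. The fits were tested on counts simulated with changes of 1.5-fold and 2-fold. Of the 1.5-fold changes, 83% were called between controls, 80% in the myoD pair and 76% in the nkx1-1 pair. Of the 2-fold changes these shares were 92%, 96% and 92%. Among all calls 4.89%, 5.88% and 4.55% were false. Smaller changes, as most members have, were not simulated.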

Additional observations from a re-analysis of the deposited data

Results flagged for a closer look

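In 5 of 52 sets of values, 1 animal lay far from the rest of its group by a gap test, where chance gives about 1 in 20 sets, or 2.6. In nkx1-1 RNAi replicate 6, dd_Smed_v4_2193_0_1 had 22.6 CPM, against 51.9 to 60.5 CPM in the other nkx1-1 RNAi animals, and dd_Smed_v4_9234_0_1 had 3.10 CPM, against 4.30 to 4.86 CPM. In nkx1-1 RNAi replicate 5, dd_Smed_v4_475_0_1 had 681 CPM, against 809 to 896 CPM in the others. In replicate 3 of the 12-feeding controls, dd_Smed_v4_10469_0_1 had 14.7 CPM, against 11.0 to 11.9 CPM, and dd_Smed_v4_475_0_1 had 1145 CPM, against 976 to 1012 CPM in the others. The sets share animals and are not independent. The contigs were also chosen by the values of these same libraries. The condition on N favours low nkx1-1 RNAi animals and high 12-feeding controls, the directions of all 5 cases. The rate of 1 in 20 thus does not hold for these sets, and no excess is read from the 5.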

How the results depend on the processing

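The number of members was 81, and 209 with no condition on overlap, 20 with no overlap required in both pairs, 178 at a threshold of −0.1 and 27 at −0.3. It was 66 to 103 when each library was left out in turn, the 66 without 12-feeding control replicate 3. With TMM-scaled CPM 107 contigs met the rule, 75 of the 81 among them, and with group medians 73, 59 of the 81 among them. Members called lower after nkx1-1 RNAi numbered 12 at an adjusted p under 0.01, 25 without TMM factors and 66 in the joint fit of 24 libraries, and 21 to 47 when each library was left out. With the replicate number as a block on replicates 1 to 5 it was 1, among 12 contigs called in all. Deviations of same-numbered libraries correlated at −0.23 to 0.29 in the nkx1-1 pair, at −0.64 to 0.17 in the myoD pair and at −0.17 to 0.62 between controls, where replicates 1, 4 and 5 correlated best with their own number and 2 and 3 did not. Not every pair was over 0.1, and the numbers were not taken as pairing the samples. Over all contigs, 643 were called after nkx1-1 RNAi, against 109 at an adjusted p under 0.01, 1042 with DESeq2, 348 without TMM factors, 1849 in the joint fit and as few as 214 with 12-feeding control replicate 4 left out. At an adjusted p under 0.01 the calls were 734 against 1232 for myoD RNAi and 3424 against 5701 between controls. Members called lower after myoD RNAi were 65 to 72, and members called between controls 46 to 57, when each library was left out. The replicate block gave 70 and 45. Over all contigs tested, 289 to 392 were called lower after myoD RNAi when each library was left out, and 345 with the block. Between controls, 4575 to 6963 were called in either direction when each library was left out, and 4735 with the block. The median difference between controls was −0.31 to −0.24, and −0.24 with the block. No ratio or fold change of a named contig turned its sign under the alternatives run. The counts between M and N, the group orders and the number called in both comparisons were recomputed without the 2 libraries, or with other nkx1-1 fits, after the data had been seen.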
